A study of Mus musculus with 12 samples.

Results

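The 4 Notch receptor genes (Notch1 to Notch4), the ligand genes Jag1 and Dll4, the gene of the DNA-binding effector RBPJ and the 3 Hey factor genes (Hey1, Hey2 and Heyl) were followed in mouse hearts with mutant or deleted Lemd2, which encodes an inner nuclear envelope protein. These 10 genes were chosen by name among the 24062 gene symbols of the count table, with earlier results of these data known. Their shares of called genes are therefore not independent of the data. All 10 were present and passed the filter on low counts in each comparison, so none was left out. Whole-heart polyadenylated RNA was sequenced from 12 mice, 1 library per mouse and 3 per group. Adult mice, 2 months old, were either WT or homozygous for a Lemd2 c.T38>G knock-in carried in every cell (KI/KI). Mice at postnatal day 1 (P1) carried a Lemd2 gene with loxP sites around its first exon, either with no Cre described (floxed) or with Cre driven by the Myh6 promoter, which is active in cardiomyocytes (cKO), so that other heart cells of the cKO mice kept the gene. Both lines were made by editing of B6C3F1 zygotes and crossing to C57BL/6N, and the replicate numbers run from 1 to 3 in the control groups and from 4 to 6 in the mutant groups.

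Notch receptors sit on the cell surface and are switched on by Jagged or Delta-like ligands on a neighbouring cell. The receptor is then cut, and its intracellular part moves to the nucleus, where it joins RBPJ on the DNA and turns target genes on, among them the Hey genes. Hey proteins are basic helix-loop-helix repressors. In the heart the pathway is known for its work in endocardium and coronary vessels, in valve formation and in the growth of the ventricular wall, and Hey2 is also a gene of the compact ventricular myocardium.

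Library totals ranged from 37063669 to 44789753 counts. Levels are given as CPM, the counts of a gene scaled to a common library total with TMM factors over the 12 libraries, and no heart had fewer than 180 counts of any of the 10 genes. Lemd2 itself was at 32.0 to 34.8 CPM in WT, 24.8 to 25.6 in KI/KI, 24.3 to 25.4 in floxed and 6.59 to 13.1 in cKO hearts. The heart replicate cKO 4 stood apart in its Y-linked genes, which summed to 0.0798 CPM against 222.7 to 325.9 in the other P1 hearts. The X-linked RNA gene Xist ranged from 0.170 to 612 CPM in cKO hearts and from 1.11 to 2.02 CPM in floxed hearts. The highest Xist value, 30665 counts at 612 CPM, had the library scaling of cKO 4. The labels give no sex. By these genes cKO 4 differed in sex from the other P1 hearts, so the P1 groups were not balanced for it. Cardiomyocyte markers were abundant in every heart, at a summed 45451 to 111278 CPM. Lung markers were uneven between hearts: Sftpc did not exceed 0.338 CPM, but Scgb1a1 ranged from 0 to 95.3 CPM in WT, 0 to 34.1 in KI/KI, 0.064 to 34.4 in floxed and 0.125 to 12.7 in cKO hearts, and Sftpa1 reached 3.86 CPM in a WT heart. The part of lung RNA in the results was not tested.

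At P1, 6 of the 10 genes differed between cKO and floxed hearts, 4 higher and 2 lower, where 9.32% of the 15317 tested genes were called higher and 7.57% lower. Hey2 fell 3.62-fold, and Notch2 fell 1.24-fold. Heyl, the receptor genes Notch4 and Notch3, and Notch1 rose by 1.68-fold, 1.48-fold, 1.42-fold and 1.35-fold. Of these calls Hey2 alone was kept whichever single heart was left out. In the adult hearts none of the 10 passed the same test, and neither did any other gene (0% of 14592). That result depends on the test: DESeq2 called 518 genes in these hearts, and the study, which used DESeq2, also reported changed genes there. All fold changes are from edgeR's quasi-likelihood test, fitted over all tested genes of a comparison, with Benjamini-Hochberg adjusted p-values, and a gene is called at an adjusted p under 0.05. Hearts are whole organs, so fewer cells of a type and less RNA per cell cannot be told apart.

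The promoter of Hey2 is shown because Hey2 had the largest change of the 10, that of Rbpj because it was the other member whose window held the same core motif, and that of Notch3 as one of the risers without it. Promoters are RefSeq windows of GRCm38.p6 running from 250 bases before to 50 bases after each start site, of which the bases upstream are printed, with 10 more for Hey2. Windows were found for 8 of the 10 genes. Each sequence runs 5′ to 3′ on the strand of its gene, and capitals mark the RBPJ core motif TGGGAA or its reverse complement TTCCCA. The windows are chr10:30842774-30843033 (minus strand) for Hey2, chr5:53590096-53590345 (plus strand) for Rbpj and chr17:32166891-32167140 (minus strand) for Notch3.
Hey2: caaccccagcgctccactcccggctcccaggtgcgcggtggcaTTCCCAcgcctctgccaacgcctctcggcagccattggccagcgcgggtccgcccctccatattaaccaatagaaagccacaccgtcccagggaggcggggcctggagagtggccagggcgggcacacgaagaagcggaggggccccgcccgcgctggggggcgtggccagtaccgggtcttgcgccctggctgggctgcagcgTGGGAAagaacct
Rbpj: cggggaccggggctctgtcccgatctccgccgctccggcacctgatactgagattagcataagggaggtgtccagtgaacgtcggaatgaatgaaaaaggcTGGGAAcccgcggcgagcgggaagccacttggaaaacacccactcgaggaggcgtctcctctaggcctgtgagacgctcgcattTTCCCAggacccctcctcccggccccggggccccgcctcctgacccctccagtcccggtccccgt
Notch3: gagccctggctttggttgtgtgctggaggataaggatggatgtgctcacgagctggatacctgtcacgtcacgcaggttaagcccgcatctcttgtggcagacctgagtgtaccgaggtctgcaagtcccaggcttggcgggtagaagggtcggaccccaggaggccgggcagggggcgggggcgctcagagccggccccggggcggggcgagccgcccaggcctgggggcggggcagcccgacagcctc
In Hey2 the motif on the strand of the gene begins at position -3 and spans the start site, and the match on the opposite strand begins at -207. In the first of the 2 windows of Rbpj the matches begin at -149 on the same strand and at -65 on the opposite one. The motif, searched on both strands, was in 2 of the 8 members with a window, and both windows of Rbpj held it. It was in 25.6% of all 32851 windows of that length, a share counted by window and not by gene. The E-box CACGTG, a sequence that Hey proteins can bind, was in 0 of the 8 and in 7.15% of all windows. These are matches of letters only.

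The receptor genes come first. Notch1, on chromosome 2 of GRCm38 (26457903 to 26516663, minus strand), encodes the receptor best known in endothelium and endocardium. Its level was 102, 110 and 102 CPM in the floxed hearts and 126, 136 and 164 CPM in the cKO hearts. All 3 cKO hearts were above all 3 floxed hearts, and the log2 fold change was 0.43 (standard error 0.10, edgeR adjusted p = 0.0298). Notch3 (chromosome 17, 32120820 to 32166852, minus strand) is the receptor of pericytes and vascular smooth muscle. It stood at 78.2, 89.8 and 85.5 CPM in floxed hearts and at 101, 116 and 143 CPM in cKO hearts, again with no overlap, and its log2 fold change was 0.50 (standard error 0.12, edgeR adjusted p = 0.0339). Notch4 (chromosome 17, 34564268 to 34588503, plus strand), a receptor largely of endothelial cells, was at 33.2, 33.5 and 37.5 CPM in floxed and at 43.3, 47.3 and 63.8 CPM in cKO hearts. It rose by 0.56 on the log2 scale (standard error 0.14, edgeR adjusted p = 0.0375). In these 3 genes the heart cKO 6 was the highest of the P1 hearts and cKO 4 the lowest of the cKO hearts.

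Notch2 went the other way. This receptor gene (chromosome 3, 98013527 to 98150361, plus strand) measured 85.8, 86.2 and 84.0 CPM in the floxed hearts and 64.1, 71.5 and 71.9 CPM in cKO hearts. The floxed hearts lay close together, every cKO heart was below them, and the log2 fold change was -0.30 (standard error 0.07, edgeR adjusted p = 0.0298). This call did not hold in every fit, with an adjusted p of 0.0504 when all 12 hearts were fitted together and 0.0805 with the Y-linked level as a covariate.

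The ligand genes gave no call at P1. Jag1 (chromosome 2, 137081456 to 137116644, minus strand), a Jagged ligand of endothelium and smooth muscle, was at 49.7, 42.6 and 48.8 CPM in floxed and at 58.0, 49.9 and 47.6 CPM in cKO hearts. The groups overlapped, and the log2 fold change of 0.14 had a 95% confidence interval from -0.13 to 0.42 (edgeR adjusted p = 0.412). Dll4 (chromosome 2, 119325784 to 119335962, plus strand), the Delta-like ligand of arterial and sprouting endothelium, was at 17.4, 12.7 and 17.2 CPM in floxed and at 13.8, 18.96 and 27.7 CPM in cKO hearts. Its cKO hearts were spread on both sides of the floxed values, and its log2 fold change of 0.34 had an interval from -0.24 to 0.93 (edgeR adjusted p = 0.358).

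Rbpj (chromosome 5, 53466152 to 53657362, plus strand) gave the narrowest P1 interval among the uncalled genes. Its floxed hearts were at 43.1, 45.1 and 43.1 CPM and its cKO hearts at 45.8, 43.1 and 46.9 CPM. The groups overlapped, and the log2 fold change was 0.05 with an interval from -0.13 to 0.23 (edgeR adjusted p = 0.692), so a difference within that interval was not resolved.

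**Figure D1:**
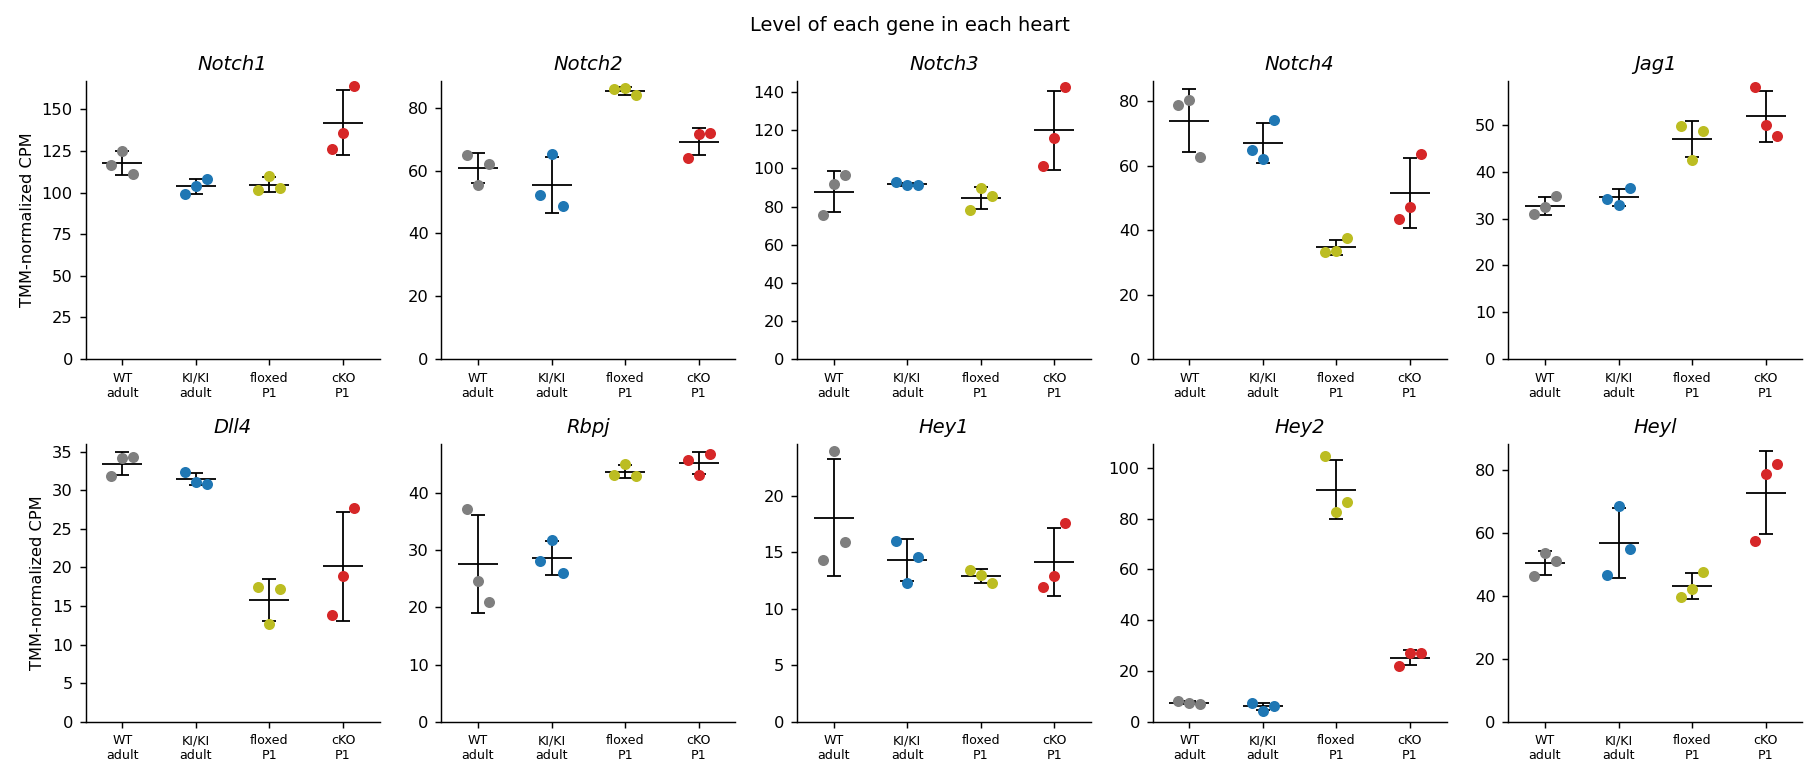
Level of each gene in each heart, as TMM-normalized CPM on a linear axis from 0 in each panel. Points are single hearts, and the horizontal line and bar give the mean and SD of 3 hearts. Hey2 separates the P1 groups most, at 82.6 to 104 CPM in floxed and 21.9 to 27.0 CPM in cKO hearts, while the adult groups overlap in every panel except Notch1.

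The Hey factor genes moved apart from one another. Hey2 (chromosome 10, 30832359 to 30842801, minus strand) was at 104, 82.6 and 86.7 CPM in the floxed hearts and at 21.9, 26.9 and 27.0 CPM in the cKO hearts. The highest cKO heart was below the lowest floxed heart by a wide margin, and the log2 fold change was -1.86 (standard error 0.13, interval -2.15 to -1.56, edgeR adjusted p = 0.00481). Heyl (chromosome 4, 123233556 to 123249875, plus strand), expressed mainly in pericytes and vascular smooth muscle, was at 39.6, 42.1 and 47.8 CPM in floxed and at 57.6, 78.7 and 82.1 CPM in cKO hearts. Its groups did not overlap either, and the log2 fold change was 0.75 (standard error 0.14, edgeR adjusted p = 0.0155). Hey1 (chromosome 3, 8663359 to 8667256, minus strand), a Hey gene of endothelium and atrial myocardium, was at 13.4, 13.0 and 12.3 CPM in floxed and at 11.9, 12.9 and 17.6 CPM in cKO hearts. The groups overlapped, with a log2 fold change of 0.13 (interval -0.23 to 0.49, edgeR adjusted p = 0.588).

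With the fold change above 2 that the study also asked for, Hey2 alone was left, in a background of 1.78% of tested genes that fell by that rule. The 6 called genes were also the 6 whose groups did not overlap, against a background of 39.0% of tested genes. Over the 10 the median log2 fold change was 0.24, and 8 were higher, beside a median of -0.0043 over all tested genes, of which 49.6% were higher.

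The Hey2 call was kept in 16 of 16 alternatives, with a log2 fold change between -1.93 and -1.75. Each of the other 5 calls was lost when certain single hearts were left out, which also leaves fewer samples to test. Notch1, Notch3 and Notch4 were each lost without floxed 1, floxed 2, floxed 3 or cKO 5, and Heyl was lost without floxed 1, floxed 2 or cKO 5, although the log2 fold changes stayed between 0.33 and 0.50 for Notch1, 0.37 and 0.60 for Notch3, 0.39 and 0.66 for Notch4, and 0.66 and 0.88 for Heyl. Among these fits Notch2 was kept only without cKO 6, with values from -0.33 to -0.27. The number of called genes was 1 without floxed 1, without floxed 2 or without cKO 5, 2 without floxed 3, and 5 without cKO 4, the heart with the low Y-linked level. The share of all tested genes called in these fits is not given here, so the counts cannot be set against a background.

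**Figure D2:**
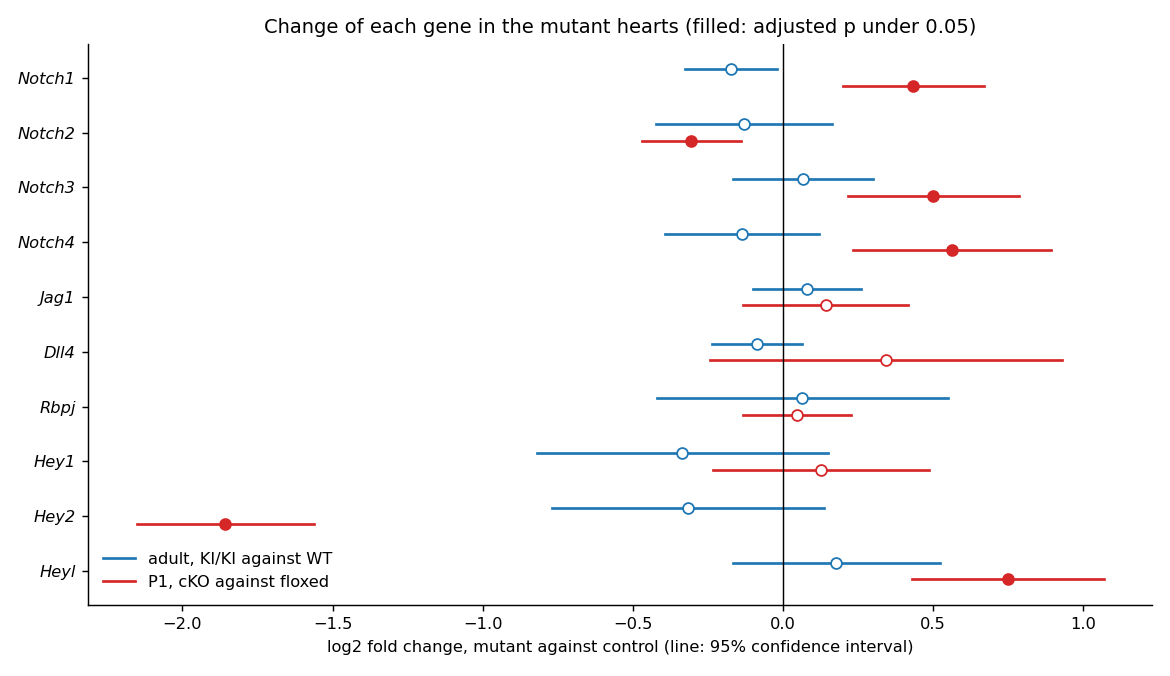
Log2 fold change of each gene in KI/KI against WT adult hearts (blue) and in cKO against floxed P1 hearts (red), with 95% confidence intervals from edgeR's quasi-likelihood fit. Filled points have an adjusted p under 0.05. The 6 filled points are all from P1, with Hey2 at -1.86 and the other 5 between -0.30 and 0.75.

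In the adult hearts edgeR called 0 of the 10 genes, and likewise 0% of the 14592 genes tested. At an unadjusted p under 0.05 there was 1 member, Notch1, where 16.2% of tested genes passed. Notch1 was also the 1 member whose groups did not overlap, against 21.8% of tested genes. DESeq2 called 518 genes in these hearts and none of the 10. The number of genes that DESeq2 tested is not given here, so that count has no background share.

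Notch1 was at 116, 125 and 111 CPM in WT hearts and at 99.1, 104 and 108 CPM in KI/KI hearts. Each KI/KI heart was below each WT heart, and the log2 fold change was -0.17 (standard error 0.06, edgeR adjusted p = 0.279). Notch2 was at 64.9, 55.4 and 62.1 CPM in WT and at 52.1, 65.3 and 48.7 CPM in KI/KI hearts, with a log2 fold change of -0.13 (edgeR adjusted p = 0.611). The heart KI/KI 5 was above all 3 WT hearts and the other two were below them. Notch3 was at 75.5, 91.7 and 96.4 CPM in WT and at 92.7, 91.4 and 91.2 CPM in KI/KI hearts (log2 fold change 0.07, edgeR adjusted p = 0.753). Notch4 was at 78.9, 80.3 and 62.8 CPM in WT and at 64.8, 62.2 and 74.1 CPM in KI/KI hearts (log2 fold change -0.14, edgeR adjusted p = 0.534). For both genes the ranges of the groups overlapped.

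Jag1 was at 31.0 to 34.8 CPM in WT and 32.9 to 36.6 CPM in KI/KI hearts, and its log2 fold change of 0.08 had an interval from -0.10 to 0.26 (edgeR adjusted p = 0.600). Dll4 was at 31.8 to 34.4 CPM in WT and 30.9 to 32.4 CPM in KI/KI hearts, with a log2 fold change of -0.09 and an interval from -0.24 to 0.06 (edgeR adjusted p = 0.501). With Notch1, these ligand genes had the smallest standard errors of the 10 in adult hearts. Rbpj varied more, at 37.2, 24.5 and 21.0 CPM in WT and at 28.1, 31.8 and 26.1 CPM in KI/KI hearts, and its log2 fold change of 0.06 had an interval from -0.42 to 0.55 (edgeR adjusted p = 0.892).

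Hey2 in adult hearts was at 8.10, 7.21 and 7.07 CPM in WT and at 7.36, 4.35 and 6.30 CPM in KI/KI hearts. One KI/KI heart lay inside the WT range, and the log2 fold change was -0.32 (interval -0.77 to 0.14, edgeR adjusted p = 0.426). Hey1 was at 14.3, 23.9 and 15.9 CPM in WT and between 12.3 and 15.997 CPM in KI/KI hearts (log2 fold change -0.33, interval -0.82 to 0.15, edgeR adjusted p = 0.430). Heyl was at 46.3, 53.7 and 51.3 CPM in WT and at 46.8, 68.8 and 54.9 CPM in KI/KI hearts (log2 fold change 0.18, interval -0.17 to 0.52, edgeR adjusted p = 0.545). The intervals of all 3 Hey genes held 0. Over the 10 genes the median was -0.11 (log2 fold change), and 4 were higher, beside 0.0023 over all tested genes.

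To compare the models, the cKO change minus the KI/KI change was tested in 1 edgeR fit of all 12 hearts, in which the comparisons share no heart. This difference was called for 2 of the 10 genes, Hey2 and Notch1, where 2.43% of 15729 tested genes were called. At an unadjusted p under 0.05 there were 5 members, in a background of 20.0% of tested genes. For Hey2 it was -1.53 on the log2 scale (standard error 0.24, edgeR adjusted p = 0.0135), and it was kept without any heart in turn except WT 2, where the adjusted p was 0.0503. For Notch1 it was 0.62 (standard error 0.13, edgeR adjusted p = 0.0370), with the gene higher in 3 of 3 cKO hearts and lower in 3 of 3 KI/KI hearts than in any of their controls. This call was lost in 9 of the 12 fits that left out 1 heart, those without floxed 1, floxed 2, cKO 5 or any adult heart, with values from 0.51 to 0.70. Notch4 had a difference of 0.71 (standard error 0.20, edgeR adjusted p = 0.0821), and DESeq2 called it at an adjusted p of 0.0184. Heyl (0.58, adjusted p = 0.166) and Notch3 (0.44, adjusted p = 0.176) were not called by edgeR. The models differ in age, allele, the cells that carry the mutation and breeding, which cannot be told apart here. At P1 the presence of Cre and the loss of Lemd2 cannot be told apart, since no Cre is described for floxed mice.

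Across the 4 groups Hey2 had the widest range of levels. Its order of mean levels was floxed, cKO, WT and KI/KI, at 91.2 ± 11.6, 25.3 ± 2.92, 7.46 ± 0.56 and 6.003 ± 1.52 CPM (mean ± SD, n = 3 hearts per group), and only WT and KI/KI overlapped as neighbours. Notch1 was in the order cKO, WT, floxed and KI/KI, with only floxed and KI/KI overlapping. Notch2 was highest in floxed hearts, and cKO, WT and KI/KI followed with overlapping neighbours. Notch4 and Dll4 were highest in WT and lowest in floxed hearts, while Jag1 and Rbpj were highest in cKO and lowest in WT hearts. For Jag1, Dll4 and Rbpj the single break between neighbours was the one between the ages. For Hey1 and Heyl every pair of neighbours overlapped. No test was made between ages.

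Per kilobase of annotated exon, which allows levels of different genes to be set side by side, Hey2 was the highest of the 10 genes in floxed hearts at 35.8 ± 4.55 CPM per kilobase and the lowest in WT hearts at 2.93 ± 0.22. In cKO hearts it was at 9.91 ± 1.14, below Heyl at 16.1 ± 2.92, Notch3 at 14.97 ± 2.599 and Notch1 at 14.96 ± 2.07 CPM per kilobase. In WT hearts the leading genes were Notch1 (12.4 ± 0.76), Notch4 (11.2 ± 1.48), Heyl (11.1 ± 0.84) and Notch3 (10.96 ± 1.36), whose ranges overlapped.

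As a share of the summed level of the 3 Hey factor genes per kilobase, Hey2 made up 70.5% ± 3.15 in floxed and 31.3% ± 1.69 in cKO hearts (mean ± SD, n = 3). Heyl went from 18.9% ± 2.81 to 50.3% ± 1.88, and Hey1 from 10.5% ± 0.74 to 18.3% ± 2.12. In WT adult hearts Heyl made up 52.0% ± 3.36, Hey1 34.2% ± 5.23 and Hey2 13.8% ± 2.499, so Heyl led the sum in every group except floxed. Among the receptors, Notch2 made up 23.3% ± 0.87 in floxed and 15.0% ± 1.49 in cKO hearts, while Notch1 went from 31.6% ± 0.73 to 33.8% ± 0.52, Notch3 from 30.1% ± 1.07 to 33.7% ± 0.86 and Notch4 from 15.1% ± 1.04 to 17.5% ± 1.08. For each of these 7 genes the shares of the P1 groups did not overlap, although the CPM of Hey1 did. Shares have no background over all tested genes, of which 39.0% had P1 groups that did not overlap in CPM. Shares of a sum are tied to one another, so a lower Hey2 raises the shares of the other two.

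**Figure D3:**
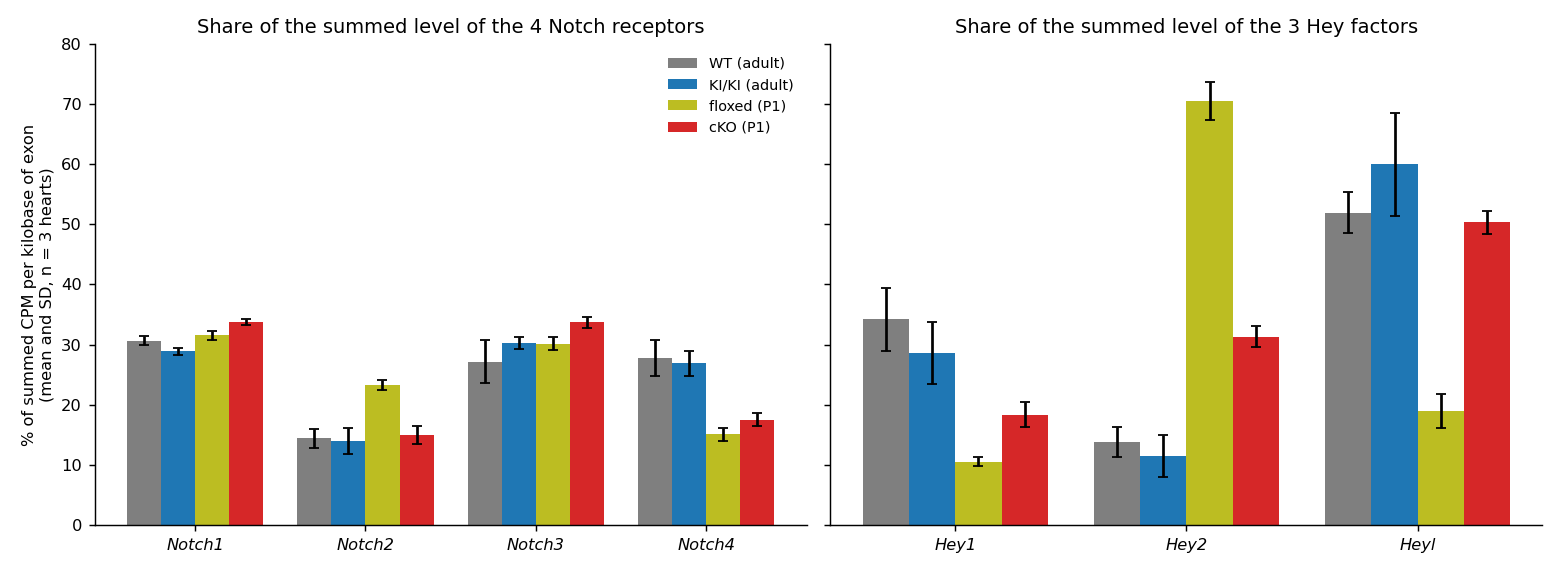
Share of each gene in the summed level of the 4 Notch receptors (left) and of the 3 Hey factors (right), in % of summed CPM per kilobase of exon. Bars are means and lines SDs of 3 hearts per group, on an axis from 0. Hey2 takes 70.5% of the Hey sum in floxed and 31.3% in cKO hearts, and Notch2 23.3% and 15.0% of the receptor sum.

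Several of the 10 genes are genes of vessel cells, so marker lists of the heart's cell types were read beside them. As the background for the called counts at P1, 9.32% of all tested genes were called higher and 7.57% lower. At P1, endothelial markers (16 tested, among them Pecam1, Cdh5 and Tie1) had a median change of 0.19 on the log2 scale, 4 of them called higher and none lower, and summed to 2263 to 2368 CPM in floxed and 2601 to 2905 CPM in cKO hearts. Pericyte and smooth muscle markers had a median of 0.36, with 5 of 12 called higher and 1 lower, and summed to 2223 to 2645 and 2664 to 3813 CPM. In direction 8 of these 12 were higher and 4 lower (Kcnj8, Abcc9, Vtn and Myh11). Acta2 held much of their sum, with means of 1146 CPM in floxed and 1655 CPM in cKO hearts. Endocardial markers had a median of 0.41 (2 of 7 called higher) and arterial markers of 0.38 (3 of 11 higher and 1 lower). Macrophage and leukocyte markers had a median of 0.89, with 4 of 7 called higher, and summed to 71.4 to 86.0 CPM in floxed and 112 to 165 CPM in cKO hearts. Cardiomyocyte markers had a median of -0.35, with 4 of 10 called lower, ventricular markers of -0.20 (1 of 6 lower), and atrial markers of -0.10 (1 of 10 higher and 1 lower). Some atrial markers were uneven between cKO hearts. Myl7 ranged from 347 to 606 CPM in floxed and from 118 to 904 CPM in cKO hearts, and Myl4 from 456 to 748 and from 288 to 1739 CPM. Fibroblast markers had a median of 0.15 (2 of 8 higher). None of the lists just named held a gene at 0 in every P1 heart. The part of these cell types in the changes of the 6 called genes was not tested.

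Relative to the mean log2 level of the 16 endothelial markers in the same heart, Hey2 in cKO hearts differed from floxed hearts by -2.09 on the log2 scale. Heyl was higher by 0.49, Notch4 by 0.30, Notch3 by 0.25 and Notch1 by 0.18, and Notch2 differed by -0.55. These differences were smaller than the fold changes above for the 4 higher genes and larger for Notch2 and Hey2, and none of the 6 overlapped between groups. Only endothelial markers were used, also for Heyl and Notch3, genes of pericytes and smooth muscle, and for Hey2, also a gene of ventricular myocardium. Levels relative to markers of those cells are not given here. Rbpj, which was not called, differed by -0.20 on this scale without overlap, which made 7 of 10 genes where 47.1% of all tested genes had groups that did not overlap on this scale. The exact two-sided permutation test gave p = 0.1 for each of these 7 genes, the smallest p that 3 against 3 hearts allow. In adult hearts Notch1 (-0.31) and Notch2 (-0.28) did not overlap on this scale, 2 of 10 where 15.8% of all tested genes did not, also at an exact permutation p of 0.1, and there the endothelial list had a median of 0.13 (log2 fold change), 13 of its 16 genes being higher and none called.

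**Figure D4:**
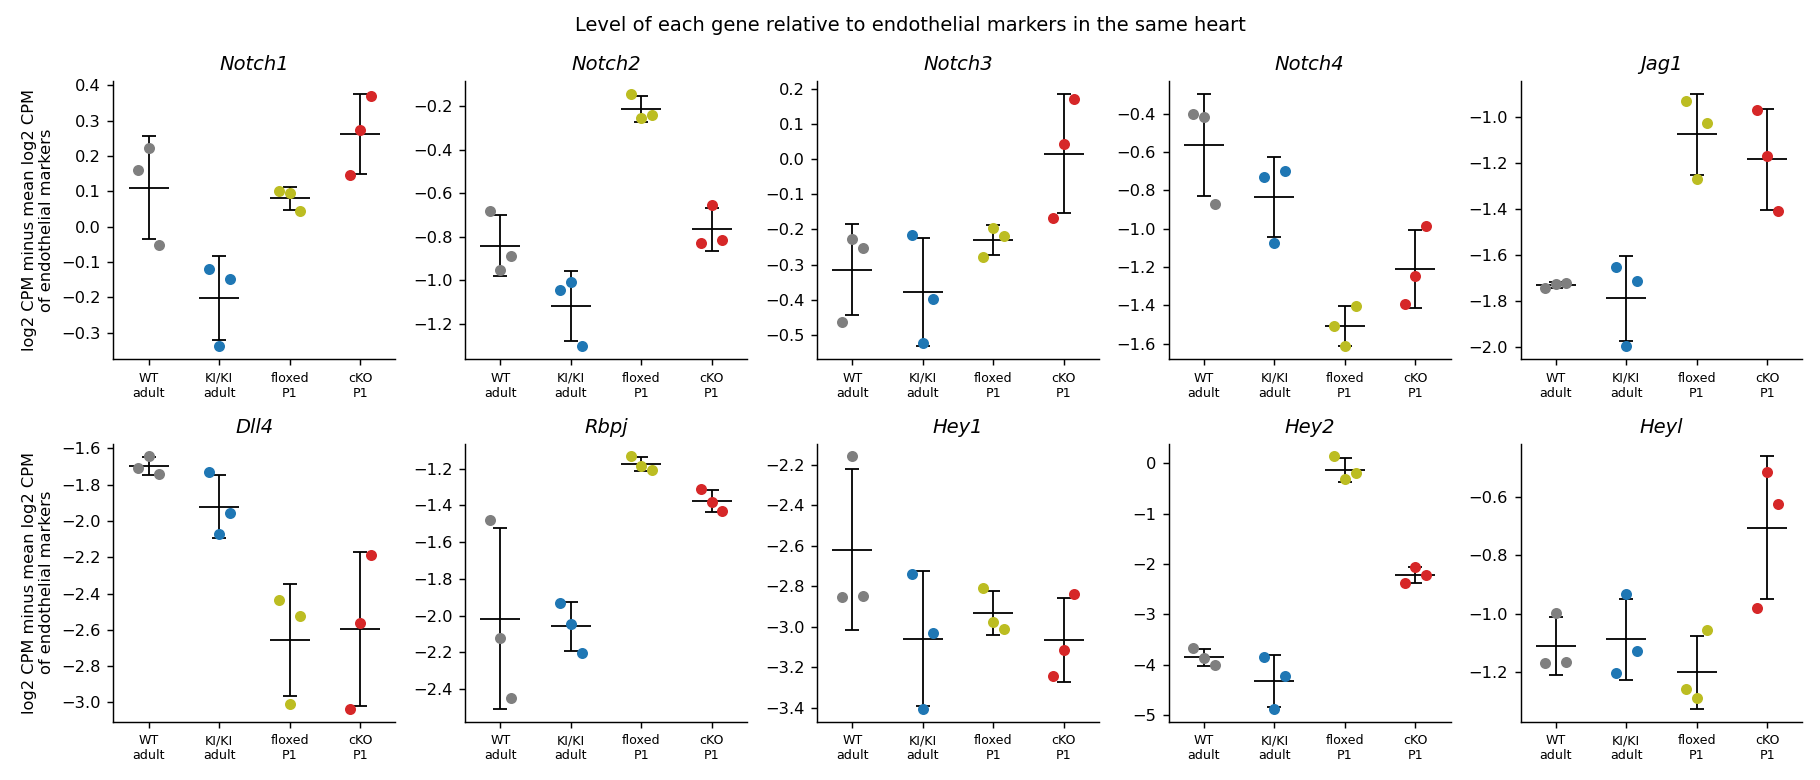
Log2 CPM of each gene minus the mean log2 CPM of 16 endothelial markers in the same heart; the axes differ between panels and do not start at 0. Points are hearts, lines and bars the mean and SD of 3 hearts. The cKO hearts lie below the floxed hearts for Hey2 and above them for Heyl, Notch4, Notch3 and Notch1.

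Other genes of the pathway were read from 5 lists with 72 genes in all, of which 67 were tested at P1 and 65 in adult hearts. At P1, 6 were called higher (8.96%) and 4 lower (5.97%), near the backgrounds of 9.32% and 7.57%. In adult hearts none was called.

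Among ligand genes outside the 10, 5 of 6 were tested at P1 and 2 were called, both lower. Dll1, a Delta-like ligand, was at 7.77 ± 1.45 CPM in floxed and 3.86 ± 1.47 CPM in cKO hearts (log2 fold change -1.03, edgeR adjusted p = 0.0438). Dlk1, a Delta-like protein without the usual Notch-binding domain, was at 78.7 ± 12.3 and 47.7 ± 4.39 CPM (log2 fold change -0.72, edgeR adjusted p = 0.0194). In both the groups did not overlap. Of 15 genes for receptor glycosylation and cleavage, 1 was called: Lfng, a fringe glycosyltransferase that changes which ligands a receptor answers to, rose from 5.52 ± 0.87 to 11.8 ± 0.71 CPM (log2 fold change 1.10, edgeR adjusted p = 0.00814).

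Of 18 genes for ubiquitylation and endocytosis, 1 was called higher and 2 lower. Fbxw7, the ubiquitin ligase subunit that marks the Notch intracellular part and MYC for degradation, fell from 57.2 ± 0.82 to 34.3 ± 4.16 CPM (log2 fold change -0.74, edgeR adjusted p = 0.00716). The neuralized family genes moved in opposite directions, with Neurl2 at a log2 fold change of -0.68 (edgeR adjusted p = 0.0236) and Neurl3 at 0.65 (edgeR adjusted p = 0.0180). Of 20 co-activators and co-repressors of RBPJ, 1 was called: Fhl1, a LIM-domain protein of muscle with a splice form that binds RBPJ, rose from 298.6 ± 71.8 to 657.9 ± 204.7 CPM (log2 fold change 1.15, edgeR adjusted p = 0.0363). The counts do not separate splice forms.

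Of 10 tested Notch target genes outside the members, 3 were called, all higher. Cdkn1a, which encodes the cell cycle inhibitor p21 and is also a target of p53, rose from 19.6 ± 1.95 to 65.1 ± 4.10 CPM (log2 fold change 1.73, edgeR adjusted p = 0.00481). Myc rose from 14.7 ± 0.77 to 30.5 ± 3.76 CPM (log2 fold change 1.05, edgeR adjusted p = 0.00674), and Efnb2, an ephrin of arterial endothelium, from 66.7 ± 1.42 to 107 ± 1.76 CPM (log2 fold change 0.68, edgeR adjusted p = 0.00483). Of 12 genes with expression linked to Hey factors in chamber and valve development, Nppa, the atrial natriuretic peptide gene, was called higher (log2 fold change 1.95, edgeR adjusted p = 0.0249) and Gata6, a cardiac transcription factor gene, lower (-0.46, edgeR adjusted p = 0.0459), with a median over the list of -0.04.

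In adult hearts the genes of these lists with the smallest p and groups that did not overlap were few, and none was called. Jag2, a Jagged ligand, was at 53.0 ± 3.61 CPM in WT and 42.5 ± 1.53 CPM in KI/KI hearts (log2 fold change -0.31, edgeR adjusted p = 0.193). Furin, the protease that cuts receptors on their way to the surface, had a log2 fold change of -0.25 and Ncstn, a subunit of gamma-secretase, one of 0.19. Dtx3l, a Deltex family ubiquitin ligase, was at 0.37, Numb, an inhibitor of the receptors, at 0.16, and Spen, a co-repressor bound by RBPJ, at -0.15, all as log2 fold changes. Nppa had a log2 fold change of 1.23. The edgeR adjusted p of each of these 6 genes was 0.217 or higher.

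**Figure D5:**
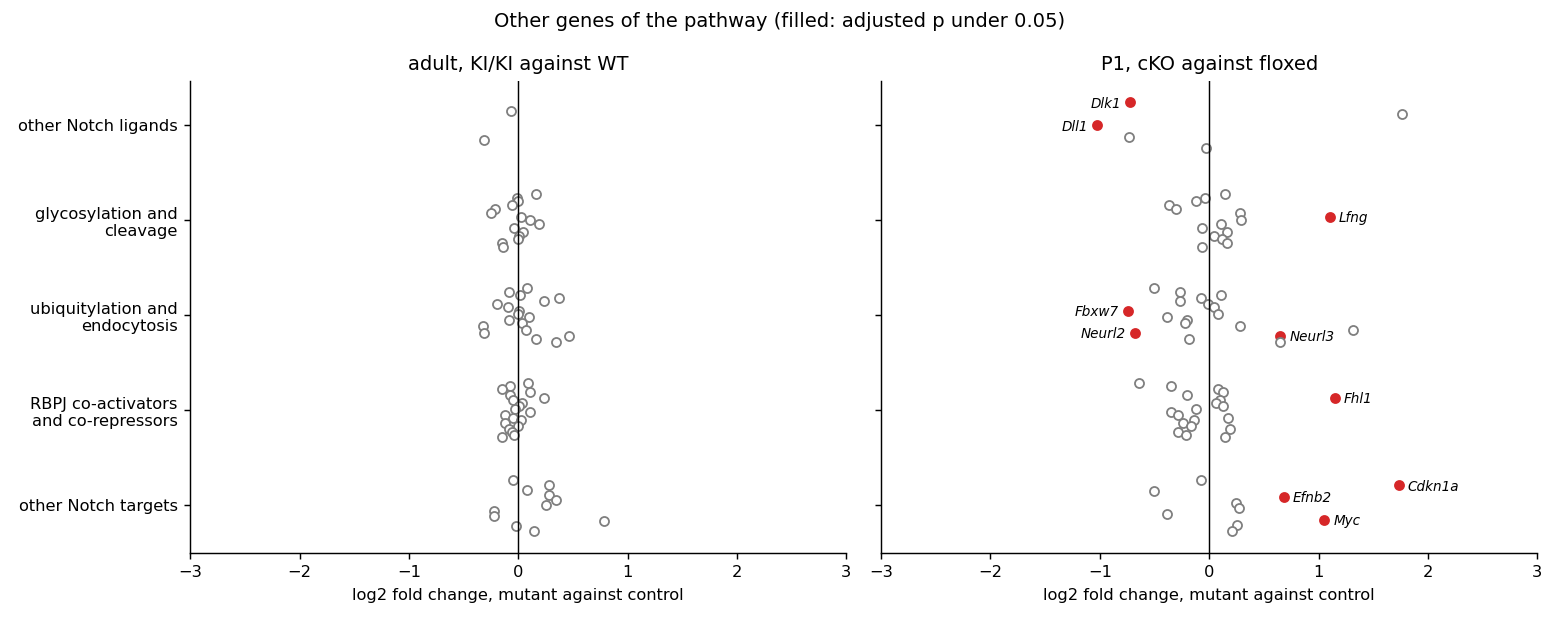
Log2 fold change of the other genes of the pathway in 5 lists, in adult hearts (left) and P1 hearts (right), with 1 point per tested gene. Filled points have an adjusted p under 0.05 in edgeR. There are none in adult hearts and 10 at P1, 6 higher and 4 lower.

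The genes whose levels moved most like each called member were found by Pearson correlation of log2 CPM, centred within each age, over the 12 hearts and 14243 genes tested in both comparisons. As descriptions only, since the difference between genotypes remains in these values, the closest genes were Rdh14 (0.989), Slc22a5 (0.983) and Zfp788 (0.983) for Hey2, and Tspan9 (0.969), Flnc (0.968) and Pafah1b3 (0.966) for Heyl. For Notch1 they included Arhgef19 (0.959) and Hip1r (0.941), and they were for Notch3 Rela (0.951), Cd4 (0.941) and Stk11 (0.940), for Notch4 Dusp8 (0.970), Setd8 (0.967) and Gps1 (0.958), and for Notch2 2210018M11Rik, Brd2 and Suv420h2 (0.904 each).

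Exons of 4 of the 10 genes overlap another annotated gene in GENCODE. For Dll4 the partner Gm14207, on the opposite strand with 214 shared exon bases, was in the count table at 0.519 to 1.04 CPM. The partners of Notch1 (0610009E02Rik and Gm13568), Notch3 (Gm17276) and Notch2 (Gm42820, on the same strand) were not in the table. Whether counting used the strand was not stated in the sources used here, so reads from such a pair cannot be told apart.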

How the data were processed

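Hearts of 12 mice were sequenced by the authors (polyadenylated RNA, single-end reads, 1 library per mouse). Per the study's methods and processing notes, reads were trimmed with Trim Galore, aligned to mm10 with STAR 2.7.2b, handled with SAMtools 1.9 and counted per gene with HTSeq, and the counts were deposited as whole numbers without normalization. Bowtie2 2.3.4.3 was used to judge library quality against transcript and ribosomal RNA sequences. Multi-mapped reads and the strand setting are not described in the sources used here.

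The tests were run with edgeR 4.0.16 under R 4.3.3 (filterByExpr, TMM, robust quasi-likelihood test, Benjamini-Hochberg adjustment over all tested genes). Each comparison used its 6 libraries, and the difference between models all 12. Standard errors were taken from the fold change and the test statistic. Levels relative to markers were log2 values with a pseudocount of 0.1 CPM. Totals of 37063669 to 44789753 put 3 counts at 0.067 to 0.0809 CPM, which allows for counting error alone. The mice are the replicates, and no pair of libraries agreed within sampling noise. Positions and exon lengths are from GENCODE M21 (GRCm38).

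Alternatives were DESeq2 1.42.0, limma-voom (limma 3.58.1), RLE and upper quartile factors, other filters, other dispersions, a Y-linked covariate, other call rules and each heart left out; the legacy dispersions and the repeats of the overlap counts were added after seeing the data. The tests were checked on simulated data. The 10 genes and all lists were chosen with earlier results of these data known. Other pathway genes are named where they had the smallest adjusted p under 0.05 in their list (at most 3), or in adult hearts the smallest p under 0.05 without overlap (at most 2). The study's other experiments were not analysed here. One of the genes the correlation rule names is not reported here.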

Additional observations from a re-analysis of the deposited data

Results flagged for a closer look

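For Notch1 and Hey2 the effects of the models differed in a test of the difference itself (edgeR's quasi-likelihood test over 12 hearts). For Hey2, the cKO change minus the KI/KI change was -1.53 on the log2 scale (standard error 0.24, edgeR adjusted p = 0.0135), with both changes negative, -1.86 at P1 and -0.32 in adult hearts. For Notch1 it was 0.62 (standard error 0.13, edgeR adjusted p = 0.0370), with changes of 0.43 and -0.17.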

How the results depend on the processing

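In adult hearts 1 gene instead of 0 was counted at an unadjusted p under 0.05, and 1 to 4 genes had groups that did not overlap when a heart was left out, as did 26.9% to 43.3% of all tested genes. At P1 the count of 6 became 1 with a fold change above 2, a fall that 1.78% of tested genes shared, and 1 to 6 with a heart left out. For the difference between models the count of 2 became 1 with a fold change above 2, 5 at an unadjusted p under 0.05 (20.0% of tested genes) and 0 to 2 with a heart left out. The shares of all tested genes called with a heart left out are not given here, nor is that for the difference at a fold change above 2. Changes of sign were limited to uncalled genes. Leaving out a heart gave from -0.038 to 0.15 for adult Notch3, -0.094 to 0.33 for adult Rbpj, -0.051 to 0.22 for P1 Hey1, and for the difference between models -0.023 to 0.13 for Jag1 and -0.28 to 0.16 for Rbpj. Rbpj was at -0.0033 with upper quartile factors at P1, and its difference between models was 0.018 with DESeq2 and 0.013 with RLE factors. The causes were not tested.

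Under the other scaling factors tried, a group level moved by 1 SD of its hearts or more 24 times and by less 56 times. With 3 hearts per group the widest interval at P1, that of Dll4, ran from -0.24 to 0.93. No paired analysis was possible because the groups compared share no replicate number.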
